A study of Mus musculus with 16 samples.

Results

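Cholesterol and fatty acid synthesis was followed through 30 genes in mitral cells of young ICR mice. Mitral cells carry the output of the olfactory bulb, and they were taken on postnatal day 3 (P3) or 6 (P6). The genes were chosen by name and not by a rule on their signal, but with earlier results of these data known. All 30 passed the detection filter, out of 21068 features tested (12033 named genes, the rest unnamed probes). Control cells had received pCAG-EYFP, a plasmid for the yellow fluorescent protein EYFP, by electroporation in utero at embryonic day 12. Kir2.1 cells had received pCAG-Kir2.1 together with pCAG-EYFP; Kir2.1 is a potassium channel of the inward rectifier family, and neurons that carry it fire less readily. The CAG promoter is active in many cell types, so cells were picked by hand for fluorescence and kept where PCR found EYFP and Pcdh21 (now named Cdhr1, a mitral and tufted cell gene). Each of the 4 groups (P3 control, P3 Kir2.1, P6 control, P6 Kir2.1) had 4 arrays, each array read the pooled, PCR-amplified cDNA of 10 cells, and a group therefore held 40 cells. Pools are biological replicates by the study's own description, which gives no number of animals, so p-values measure the spread between pools, part of which may be technical.

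Cells make cholesterol from acetyl-CoA through the mevalonate pathway, which also supplies isoprenoids, and then through squalene and lanosterol. Fatty acids are made from the same acetyl-CoA. The transcription factors SREBP1 (gene Srebf1) and SREBP2 (Srebf2) switch on genes of both routes. SCAP escorts them out of the endoplasmic reticulum when sterols are low, and the INSIG proteins hold the complex back when sterols are high. Lipoprotein cholesterol from the blood hardly enters the brain, so neural cells rely on local synthesis, with neurons taking part of their sterol from astrocytes after birth.

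Levels are given as log2 relative signal, which is the log2 of a probe's processed signal over its array's 75th percentile among probes well above background on all 16 arrays; levels of different genes are not compared, since probes differ in brightness. Changes are differences of group means on this scale, with SE, 95% interval and adjusted p from limma (Benjamini-Hochberg over 21068 features), and a change was called where the adjusted p was under 0.05. On each array 34.3% to 41.1% of probes were well above background, and no gene spot was saturated. Pools of a group correlated with a median of 0.874 (P3 control), 0.847 (P3 Kir2.1), 0.803 (P6 control) or 0.818 (P6 Kir2.1). Cdhr1 was measured at mean levels of 3.31, 2.75, 3.08 and 3.75 in these groups in the same order. For Kcnj2, the gene of Kir2.1, the 1 probe exceeded background clearly on 0 of 16 arrays; whether it reads the introduced cDNA is not stated, so it does not check the labels. The P3 arrays lay on one slide and the P6 arrays on another, and control pools lay in row 1 and Kir2.1 pools in row 2 of each slide, so age and slide, and Kir2.1 and row, cannot be told apart.

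The members fell into 4 groups by role: 8 mevalonate enzymes (Acat2, Hmgcs1, Mvk, Pmvk, Mvd, Idi1, Fdps and Ggps1), 11 squalene and sterol enzymes (Fdft1, Sqle, Lss, Cyp51, Tm7sf2, Msmo1, Nsdhl, Hsd17b7, Ebp, Sc5d and Dhcr7), 6 regulators and carriers (Srebf1, Srebf2, Insig1, Insig2, Scap and the sterol carrier Stard4) and 5 fatty acid synthesis enzymes (Fasn, Scd1, Scd2, Acly and Acaca). Of the 30 genes, 18 were well above background on all 16 arrays, 9 on 12 to 15 arrays, and 3 on fewer: Lss on 10, Scd1 on 10 and Srebf1 on 7. No gene was below background on every array of a group. How often a gene was detected went with how far its pools differed. The median SD within groups was 0.73 for the 18 genes detected everywhere, 2.17 for the 9 and 2.81 for the 3. All tested features in the same detection classes had medians of 0.55, 1.70 and 1.83.

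**Figure D1:**
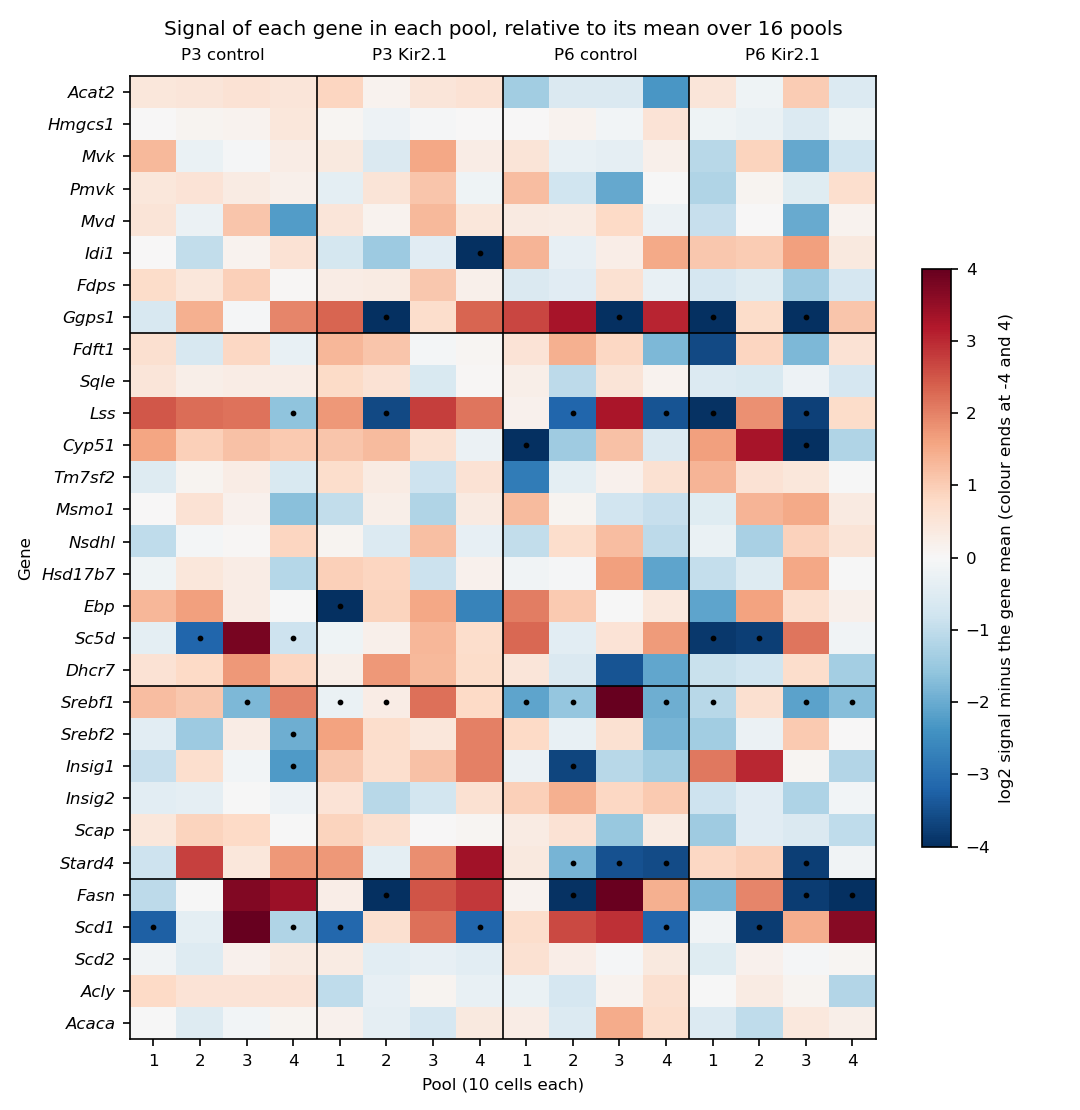
Log2 relative signal of each of the 30 genes (rows, grouped by role, lines between the groups) in each of the 16 pools (columns, 4 per group), shown as the difference from the gene's mean over all pools; red is above and blue below that mean, and a dot marks a pool not well above background. Hmgcs1, Scd2 and Sqle vary little, whereas Ggps1, Lss, Sc5d, Srebf1, Stard4, Fasn and Scd1 swing between pools of the same group.

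The enzymes with steady readings included the entry step of the mevalonate pathway after acetoacetyl-CoA, squalene oxidation and fatty acid desaturation. Hmgcs1, the cytosolic HMG-CoA synthase, had the smallest SD within groups of the 30 genes, at 0.20. Sqle, the squalene epoxidase, read 0.80, 0.55, 0.59 and 0.61 in P3 control pools 1 to 4, 1.08, 0.89, -0.32 and 0.36 in P3 Kir2.1, 0.55, -0.74, 0.80 and 0.43 in P6 control, and -0.23, -0.31, 0.11 and -0.36 in P6 Kir2.1. The stearoyl-CoA desaturase gene Scd2 read 1.97, 1.59, 2.27 and 2.45 in P3 control, 2.42, 1.68, 1.79 and 1.68 in P3 Kir2.1, 2.70, 2.38, 2.05 and 2.51 in P6 control, and 1.62, 2.29, 2.07 and 2.19 in P6 Kir2.1. Its 4 groups overlapped throughout. Its relative Scd1 was detected in only some pools of each group, with readings from -9.66 to -2.27 in P3 control, -9.55 to -4.19 in P3 Kir2.1, -9.57 to -3.47 in P6 control and -10.17 to -2.74 in P6 Kir2.1. Lss, the lanosterol synthase, was detected in 3 of 4 pools in each P3 group and in 2 of 4 in each P6 group. Its pools spanned -7.70 to -3.62, -9.72 to -3.33, -9.55 to -2.83 and -10.06 to -4.28 in the order of the groups above. With such spans the intervals of Scd1 and Lss covered changes of several log2 units in either direction.

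Kir2.1 against control at P3 asked what the channel had altered by the earlier age. None of the 30 genes was called at P3, beside 0.00949% of all features (2 of 21068). At an unadjusted p under 0.05 there were 3 genes, 1 higher and 2 lower, beside 6.53% of all features. Control and Kir2.1 pools did not overlap for 2 genes, Srebf2 and Acly, beside 6.79% of all features. The 30 changes divided evenly, 15 above and 15 below 0 (52.2% of all features were below), and their median was -0.02 beside -0.03 over all features.

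Srebf2, which encodes the sterol-responsive factor SREBP2, read -5.39, -6.44, -4.67 and -6.94 in P3 control and -3.37, -4.28, -4.52 and -2.95 in P3 Kir2.1. All 4 Kir2.1 pools lay above all 4 control pools, control pool 4 being not well above background. The difference was 2.08 (SE 0.69, 95% interval 0.60 to 3.55) and was not called, with an adjusted p of 0.581 from limma. With normexp background correction it was 0.90. A second Srebf2 probe, detected on 7 arrays, gave 2.04 at P3. At P6 the ranges overlapped, from -6.82 to -4.18 in control and from -6.36 to -3.92 in Kir2.1, and the difference was 0.05 (SE 0.69). The change in the Kir2.1 difference between the ages was -2.03 (SE 0.97) and was not called (limma adjusted p = 0.484).

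Acly, the ATP citrate lyase that supplies cytosolic acetyl-CoA, went the other way at P3. It read 1.69, 1.46, 1.44 and 1.44 in P3 control and -0.12, 0.59, 1.02 and 0.62 in P3 Kir2.1, again without overlap. The difference was -0.98 (SE 0.37, 95% interval -1.77 to -0.19; limma adjusted p = 0.627), a fold size of 1.97. At P6 control read 0.64, 0.23, 1.04 and 1.54 and Kir2.1 0.90, 1.23, 1.02 and -0.27, and the groups overlapped. Idi1, the isopentenyl-diphosphate isomerase, read -5.39, -6.38, -5.26 and -4.83 in P3 control and -6.10, -6.85, -5.85 and -9.47 in P3 Kir2.1, where pool 4 was not well above background. Its difference was -1.60 (SE 0.70; limma adjusted p = 0.734), -0.80 without that pool and -0.48 with normexp.

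By role at P3, the regulators and Stard4 had 5 of 6 changes above 0 (median 0.37), and 4 of 6 with normexp background correction. The fatty acid enzymes had 4 of 5 below 0 (median -0.69). The mevalonate enzymes and the squalene and sterol enzymes had medians of -0.08 and 0.01. Apart from Srebf2, Acly and Idi1, no gene reached an unadjusted p under 0.05.

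**Figure D2:**
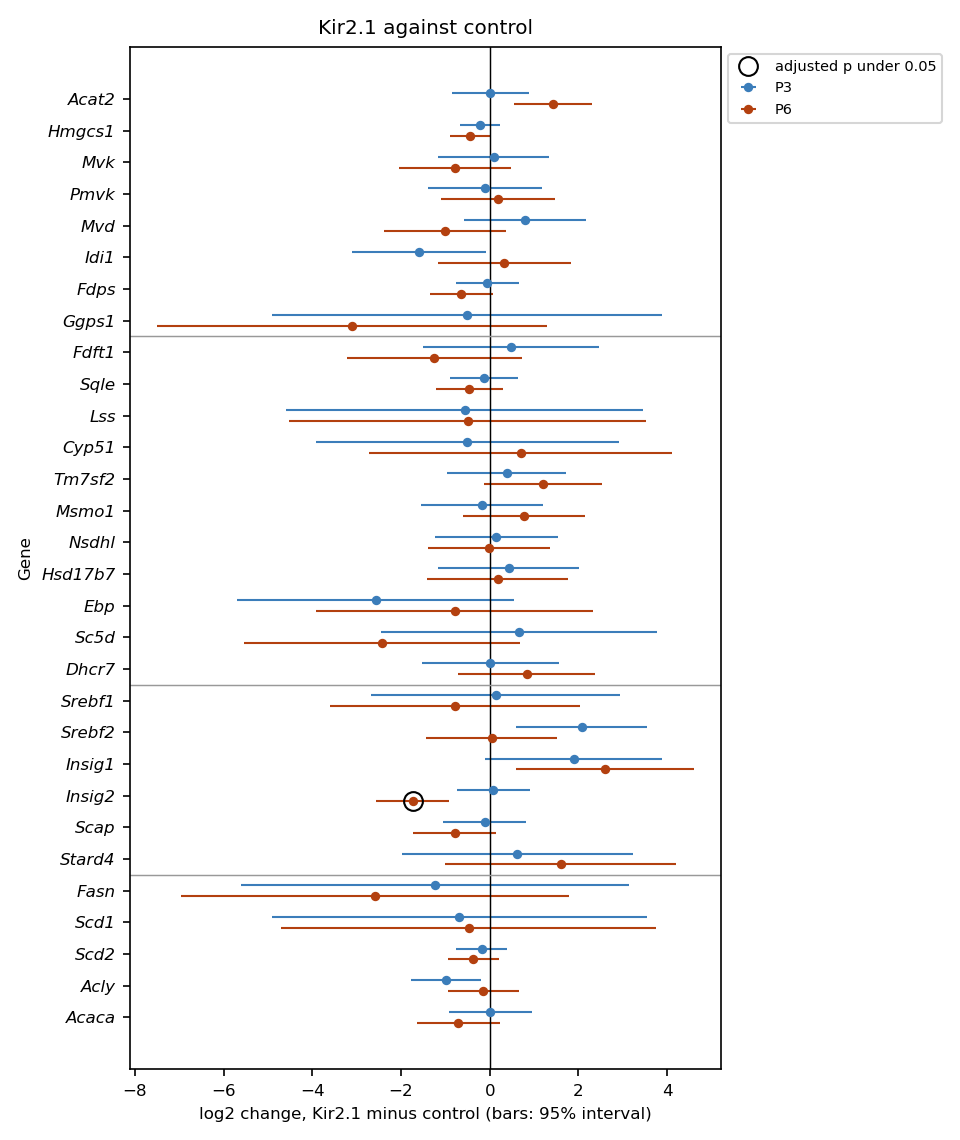
Change with Kir2.1 (x axis, log2, Kir2.1 minus control) of each of the 30 genes (y axis, grouped by role) at P3 (blue) and P6 (red); points are differences of 4-pool means and bars are 95% intervals from limma. A circle marks an adjusted p under 0.05, which only Insig2 at P6 reached; the widest intervals belong to Ggps1, Fasn, Scd1 and Lss.

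At P6 the same comparison called 1 of the 30 genes, Insig2, which was lower in Kir2.1 cells, beside 1.76% of all features (0.892% called lower). Unadjusted p was under 0.05 for 4 genes, 2 in each direction, beside 17.5% of all features. Pools did not overlap for 3 genes, Acat2 higher and Hmgcs1 and Insig2 lower in Kir2.1, beside 8.90% of all features. Of the 30 changes 19 were below 0, beside 56.3% of all features; with other scalings or normexp background correction the number below 0 ranged from 17 to 22. The median was -0.45 beside -0.13 over all features. Other scalings or normexp moved the median of all features at P6 between -0.25 and 0.09, so single changes of this size depend on the processing. Under the other scalings the members' median rose with it, whereas with normexp that of all features fell and the members' median hardly moved. It was -0.24 beside 0.09 with scaling over all gene probes, -0.32 beside 0.01 with quantile normalization and -0.43 beside -0.25 with normexp.

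Insig2 encodes one of the endoplasmic reticulum proteins that retain SCAP and SREBP. It read -2.34, -1.87, -2.47 and -2.25 in P6 control and -4.15, -3.76, -4.53 and -3.43 in P6 Kir2.1. Every Kir2.1 pool lay below every control pool. Insig2 fell by 1.73 (SE 0.38, 95% interval of the change -2.56 to -0.91), 3.33-fold, with an adjusted p of 0.0395 from limma. The call was not stable: it ended in 8 of 13 other settings (adjusted p 0.0175 to 0.141) and when any of 11 of the 16 pools was left out (adjusted p up to 0.0877), while the change stayed between -1.91 and -1.40.

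The P6 control pools were the ones that stood apart for Insig2. P3 control read -3.72, -3.68, -3.32 and -3.50, and P3 Kir2.1 read -2.75, -4.43, -4.03 and -2.70, with a difference of 0.08 (SE 0.38). The group means were -3.55 ± 0.18, -3.48 ± 0.89, -2.23 ± 0.26 and -3.97 ± 0.48 (SD, n = 4) in P3 control, P3 Kir2.1, P6 control and P6 Kir2.1. Between the ages the Kir2.1 difference moved by -1.81 (SE 0.54), and this was not called (limma adjusted p = 0.23).

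Insig1, the paralog of Insig2 and itself an SREBP target, had the opposite sign. It read -5.78, -9.21, -6.65 and -6.93 in P6 control, where pool 2 was not well above background, and -3.45, -2.53, -5.46 and -6.72 in P6 Kir2.1. Kir2.1 pool 4 lay within the control range and the other 3 above it. The difference was 2.60 (SE 0.93, 95% interval 0.60 to 4.60) and was not called (limma adjusted p = 0.167); with normexp it was 0.85. At P3 control read -6.47, -4.89, -5.67 and -7.80, the last not well above background, and Kir2.1 read -4.46, -4.89, -4.37 and -3.53. The P3 difference was 1.89 (SE 0.93; limma adjusted p = 0.795), and 0.56 with normexp. Averaged over both ages, Insig1 differed by 2.25 (SE 0.66, 95% interval 0.83 to 3.66), the lowest adjusted p of the 30 genes in that comparison at 0.141; with normexp it differed by 0.71.

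Scap, the escort of SREBP, read 0.68, 1.13, 1.02 and 0.22 in P3 control, 1.12, 0.89, 0.27 and 0.30 in P3 Kir2.1, 0.58, 0.82, -1.28 and 0.57 in P6 control and -1.18, -0.20, -0.33 and -0.76 in P6 Kir2.1. At P6 control pool 3 lay below every Kir2.1 pool and the other 3 control pools above them, and the difference was -0.79 (SE 0.44; limma adjusted p = 0.371). Without that control pool the difference was -1.27 and was still not called (limma adjusted p = 0.0695). Srebf1, whose product favours fatty acid genes, was detected in 3, 2, 1 and 1 of 4 pools in the 4 groups in the same order. Its readings spanned -9.31 to -5.52, -7.78 to -5.29, -9.62 to -3.09 and -9.64 to -6.88, so no direction could be read for it at this signal.

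**Figure D3:**
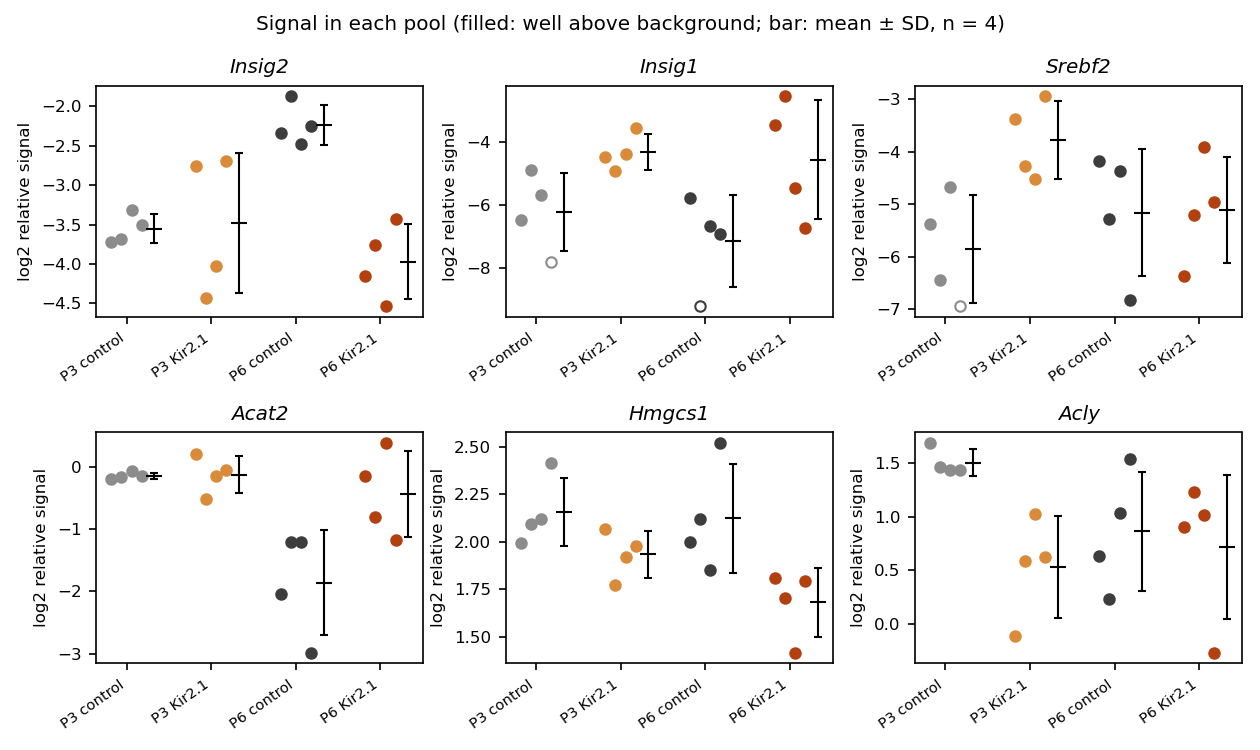
Log2 relative signal (y axis) of Insig2, Insig1, Srebf2, Acat2, Hmgcs1 and Acly in each pool of the 4 groups (x axis); filled points are well above background, open points are not, and the bar beside each group is the mean ± SD (n = 4). P6 control pools sit highest for Insig2, from -2.47 to -1.87, and lowest for Acat2, from -2.98 to -1.21, and P3 Kir2.1 pools lie above P3 control pools for Srebf2 and below them for Acly.

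Among the mevalonate enzymes at P6, Acat2 and Hmgcs1 were the non-overlapping pair, with opposite signs. Acat2, the cytosolic acetoacetyl-CoA thiolase that opens the pathway, read -2.04, -1.21, -1.21 and -2.98 in P6 control and -0.15, -0.81, 0.39 and -1.18 in P6 Kir2.1. The gap between the nearest pools, -1.21 and -1.18, was narrow. The difference was 1.42 (SE 0.41, 95% interval 0.55 to 2.30) and was not called (limma adjusted p = 0.0882). Hmgcs1 read 2.00, 2.12, 1.85 and 2.52 in P6 control and 1.81, 1.70, 1.42 and 1.79 in P6 Kir2.1. Its difference was small, -0.44 (SE 0.21; limma adjusted p = 0.285), a fold size of 1.36, and -0.23 when arrays were scaled over all gene probes. At P3 Hmgcs1 read from 2.00 to 2.41 in control and 2.07, 1.77, 1.92 and 1.98 in Kir2.1, which overlapped.

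The mevalonate enzymes together had 5 of 8 changes below 0 at P6 (median -0.54), and the squalene and sterol enzymes 6 of 11 (median -0.02). No squalene or sterol enzyme reached an unadjusted p under 0.05 at P6; the range ran from -2.43 for Sc5d, a sterol desaturase, to 1.20 for Tm7sf2, a sterol reductase. All 5 fatty acid enzymes were below 0 (median -0.48), 4 of 5 when arrays were scaled over all gene probes or the deposited value table was used, and none reached an unadjusted p under 0.05. Acaca, the acetyl-CoA carboxylase that commits carbon to fatty acids, was at -0.71 (SE 0.43; limma adjusted p = 0.422), and at -0.30 without P6 control pools 1 and 3. Fasn, the fatty acid synthase, was at -2.59 with an SE of 2.03, and 2 of its 4 Kir2.1 pools and 1 of its 4 control pools at P6 were not well above background.

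Averaged over P3 and P6, no member was called for Kir2.1, beside 0.712% of all features. Unadjusted p was under 0.05 for 6 genes, Insig1, Acat2 and Srebf2 higher and Insig2, Hmgcs1 and Acly lower, beside 13.5% of all features. None of the 30 was free of overlap in the same direction at both ages, beside 0.646% of all features. Insig2 differed by -0.83 (SE 0.27; limma adjusted p = 0.19) and Acat2 by 0.72 (SE 0.29; limma adjusted p = 0.294). Tests of whether the Kir2.1 difference itself changed between P3 and P6 called none of the 30 genes, beside 0.0902% of all features; Insig2 and Acat2 had an unadjusted p under 0.05, beside 10.7%. For Acat2 the difference moved by 1.41 (SE 0.58; limma adjusted p = 0.392).

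The comparison of P6 with P3 in control cells followed the genes over 3 days of postnatal growth. It shares the P6 control pools with the Kir2.1 comparison at P6. Acat2 was the 1 member called, lower at P6, beside 2.59% of all features (1.25% called lower). Unadjusted p was under 0.05 for 5 genes, Insig2 higher and Acat2, Fdps, Dhcr7 and Stard4 lower, beside 17.9% of all features. Pools did not overlap for Insig2, Acat2 and Dhcr7, beside 12.7% of all features. Of the 30 changes 17 were below 0, beside 53.3% of all features, with a median of -0.17 beside -0.07.

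Acat2 had narrow readings at P3, -0.19, -0.16, -0.07 and -0.15 in control and 0.21, -0.51, -0.15 and -0.05 in Kir2.1. Its mean went from -0.14 ± 0.05 in P3 control to -1.86 ± 0.84 in P6 control (SD, n = 4), and every P6 control pool lay below every P3 control pool. Acat2 fell by 1.72 (SE 0.41, 95% interval of the change -2.59 to -0.84), 3.29-fold, with an adjusted p of 0.0429 from limma. That call ended in 6 of 13 other settings (adjusted p 0.0211 to 0.119) and without any one of 12 of the 16 pools (adjusted p up to 0.108), while the change stayed between -1.95 and -1.34. In Kir2.1 cells Acat2 differed by -0.31 between the ages (SE 0.41; limma adjusted p = 0.774).

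Dhcr7, the reductase of the last step to cholesterol, read -1.43, -1.23, -0.28 and -1.17 in P3 control and -1.51, -2.58, -5.48 and -4.10 in P6 control. All P6 pools were lower, pool 1 by little. The difference was -2.39 (SE 0.72; limma adjusted p = 0.0976), and it was called without P6 control pool 1, at an adjusted p of 0.0362. In Kir2.1 cells Dhcr7 went from -1.02 ± 0.65 to -2.59 ± 0.90 (SD, n = 4), a difference of -1.57 that was not called (limma adjusted p = 0.325). Stard4, which moves cholesterol between membranes, was at -5.11 ± 1.55 in P3 control and -8.27 ± 1.86 in P6 control, where 3 of 4 pools were not well above background. Its difference of -3.15 (SE 1.21) was not called (limma adjusted p = 0.188), and was -0.71 with normexp and -1.80 with a floor at the lowest signal well above background.

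**Figure D4:**
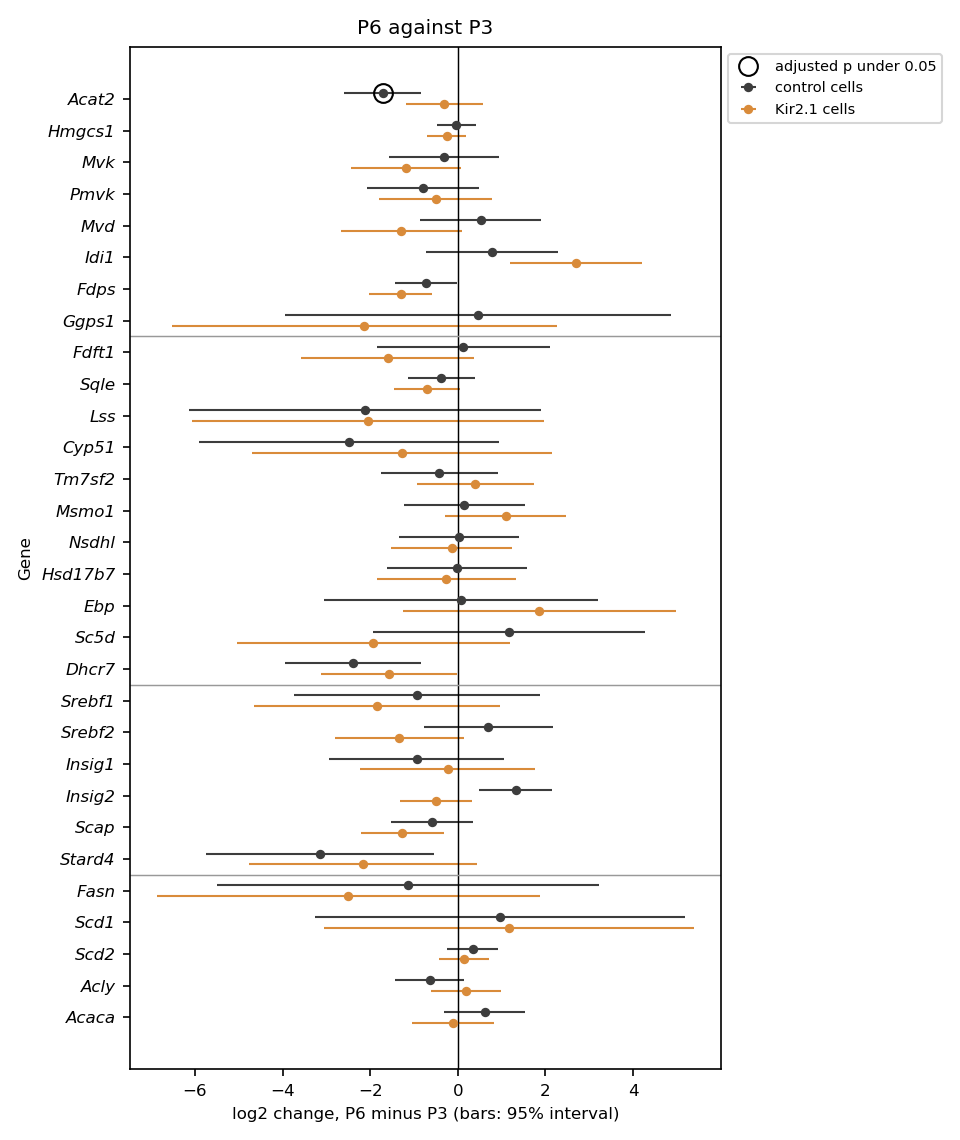
Change with age (x axis, log2, P6 minus P3) of each of the 30 genes (y axis, grouped by role) in control cells (dark) and Kir2.1 cells (orange); points are differences of 4-pool means and bars are 95% intervals from limma. The circle marks Acat2 in control cells, the only adjusted p under 0.05; Dhcr7 and Stard4 lie to the left in both, and Idi1 in Kir2.1 cells lies farthest to the right.

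Between P3 and P6 in Kir2.1 cells no member was called, beside 0.878% of all features. Of the 30 changes 23 were below 0, beside 58.6% of all features, with a median of -0.60 beside -0.16, and 21 to 23 were below 0 under the other scalings. Unadjusted p was under 0.05 for 4 genes, beside 15%, and pools did not overlap for 4 genes, Idi1 higher and Mvd, Fdps and Scap lower, beside 10.5%.

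Fdps, the farnesyl diphosphate synthase at the branch between sterols and isoprenoids, read 0.53, 0.54, 1.31 and 0.42 in P3 Kir2.1 and -0.47, -0.30, -1.22 and -0.45 in P6 Kir2.1. The difference was -1.31 (SE 0.33, 95% interval -2.02 to -0.59; limma adjusted p = 0.0887). In control cells Fdps read 0.94, 0.66, 1.17 and 0.25 at P3 and -0.37, -0.25, 0.81 and -0.07 at P6, a difference of -0.72 (SE 0.33; limma adjusted p = 0.273), so it was below 0 in both kinds of cell and called in neither. Idi1 read -4.30, -4.38, -3.74 and -5.02 in P6 Kir2.1, all above the P3 Kir2.1 pools given earlier. Its difference was 2.70 (SE 0.70; limma adjusted p = 0.094). With a floor at the lowest signal well above background the difference was 2.15, and it was then called at an adjusted p of 0.0486; with normexp it was 0.81 and was not called (adjusted p = 0.156). In control cells Idi1 read -4.03, -5.73, -5.12 and -3.89 at P6, which overlapped with P3.

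By role in Kir2.1 cells, 7 of 8 mevalonate enzymes (median -0.84), 8 of 11 squalene and sterol enzymes (median -0.70) and all 6 regulators and carriers (median -1.30; 5 of 6 with normexp) were lower at P6 than at P3 without being called. The fatty acid enzymes had 3 of 5 changes above 0 (median 0.15).

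Several members had more than 1 probe. A second probe passed the filter for 6 of them, Ggps1, Hsd17b7, Mvk, Pmvk, Srebf2 and Tm7sf2. It had the same sign as the probe used in 4 of 6 genes for Kir2.1 at P3, in 2 of 6 at P6 and in 6 of 6 for age in control cells. Ggps1, the geranylgeranyl diphosphate synthase, disagreed most at P6, with -3.10 on the probe used and 1.80 on the other. A shared sign did not mean a like size. For age in control cells Hsd17b7 was at -0.02 on the probe used and at -4.87 on the other, which was detected on 7 arrays. The other probe of Insig2 was well above background on only 2 arrays and was not used.

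Genes around the pathway were counted from lists of their own. Of 14 other cholesterol and isoprenoid genes 12 were tested and none was called in the Kir2.1 or the age comparisons. Among them Pggt1b, a subunit of a geranylgeranyl transferase, was well above background in 3 of 4 P3 control pools and in 0 of 4 P3 Kir2.1 pools. In each P6 group it was detected in 1 of 4 pools. It passed the filter of 4 arrays only with the P3 control pools counted, so this contrast is no support for a change. Its P3 difference was -3.01 (SE 1.11; limma adjusted p = 0.623). Pdss1, a subunit of the enzyme that makes the ubiquinone side chain, did not overlap between the ages in Kir2.1 cells, with a P6 minus P3 difference of -3.46 (SE 1.10; limma adjusted p = 0.157); P6 Kir2.1 pool 3 was not well above background. Of 27 other fatty acid genes 25 were tested and none was called. For Kir2.1 at P6 an unadjusted p under 0.05 was reached by 6 of the 25, 1 higher and 5 lower, beside 17.5% of all features. Pools did not overlap for 3 of the 25, all lower, beside 8.90% of all features. Of the 25 changes 13 were below 0, beside 56.3% of all features, with a median of -0.02. The lowest change was -3.12, for the desaturase family member Fads3, and the highest was that of Acsl1.

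Acsl1, which activates long-chain fatty acids, read -2.53, -6.06, -7.70 and -9.66 in P6 control, the last 2 not well above background, and -3.47, -1.83, -1.50 and -1.44 in P6 Kir2.1. The difference was 4.43 (SE 1.09; limma adjusted p = 0.0557), 2.05 with normexp and 1.75 with the mean of its probes. It was called in 7 of 13 other settings (adjusted p 0.0112 to 0.333) and without P6 control pool 1 (adjusted p = 0.00458). Elovl2, an elongase of very long polyunsaturated fatty acids, was lower in every P6 Kir2.1 pool than in any P3 Kir2.1 pool. Its P6 minus P3 difference was -4.70 (SE 1.25; limma adjusted p = 0.102), and -2.08 with normexp; P6 Kir2.1 pools 1 and 3 were not well above background.

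Of 11 genes for SREBP processing and degradation 10 were tested. Fbxw7, part of the ubiquitin ligase that targets nuclear SREBP, was the only one called, and only in control cells with age. It read -2.93, -1.96, -2.39 and -3.97 in P3 control and 0.07, -0.33, -1.77 and -0.78 in P6 control. Fbxw7 rose by 2.11 (SE 0.51; limma adjusted p = 0.0473), a call that ended in 5 of 13 other settings (adjusted p up to 0.135) and without any one of 12 of the 16 pools (adjusted p up to 0.122). For Kir2.1 at P6 it was at -1.78 (SE 0.51; limma adjusted p = 0.0893), called with normexp (adjusted p = 0.0415).

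Of 20 genes for sterol uptake, transport and turnover 16 were tested. Vldlr, a lipoprotein receptor that also binds reelin, was called higher in Kir2.1 cells at P6. It read -4.29, -3.08, -3.08 and -2.71 in P6 control and -0.36, -1.26, -0.86 and -0.41 in P6 Kir2.1, and rose by 2.57 (SE 0.45; limma adjusted p = 0.0152), 5.93-fold. That call held with each pool left out, and ended with only the P6 arrays in the fit (adjusted p = 0.116) and without P6 control pools 1 and 3 (adjusted p = 0.0622). At P3 its pools, from -2.57 to -0.57 in control and from -0.56 to 0.41 in Kir2.1, differed by 1.15 (SE 0.45; limma adjusted p = 0.649). For the mean over both ages Vldlr rose by 1.86 (limma adjusted p = 0.0181), a call that held in all 12 other settings and with each pool left out. In control cells with age Vldlr fell by 1.88 (SE 0.45; limma adjusted p = 0.044), a call that ended in 8 of 13 other settings (adjusted p up to 0.187) and without any one of 13 of the 16 pools (adjusted p up to 0.129). Stard5, a lipid transfer protein gene, fell by 4.43 with age in control cells (SE 1.01; limma adjusted p = 0.0377), with P6 control pools 2 and 4 not well above background. The change was -1.90 with normexp and -6.71 without P6 control pools 1 and 3, and the call ended in 3 of 13 other settings (adjusted p up to 0.147) and without any one of 9 of the 16 pools (adjusted p up to 0.102).

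Several lists of markers of other cells differed in the P6 groups that carried the calls for Insig2 and Acat2. For Kir2.1 at P6, 56.3% of all features were below 0 and 1.76% were called. With age in control cells 53.3% of all features were below 0 and 2.59% were called. The 13 tested of 16 interneuron markers had 12 changes below 0 for Kir2.1 at P6 (1 called, median -2.42) and 12 above 0 with age in control cells (3 called, median 2.54). Their summed linear level ran from 0.555 to 1.12 in P3 control, 0.742 to 1.12 in P3 Kir2.1, 2.73 to 8.80 in P6 control and 0.607 to 3.04 in P6 Kir2.1; Calb1 was not well above background on any array. All 8 tested astrocyte markers were below 0 for Kir2.1 at P6 (none called), with sums from 11.7 to 14.2 in P6 control and 3.93 to 15.4 in P6 Kir2.1. The 5 tested microglia markers were all below 0 for Kir2.1 at P6 (none called), with sums from 0.437 to 2.05 in P6 control and 0.204 to 1.02 in P6 Kir2.1. Olfactory ensheathing cell markers were above 0 with age in control cells in 6 of 6 (1 called) and below 0 for Kir2.1 at P6 in 5 of 6 (none called), with sums from 10.2 to 14.9 in P6 control and from 2.93 to 30.0 in P6 Kir2.1, the highest in pool 3. Penk, Dlx1, Dlx6os1, Slc4a4, C1qc, Tyrobp and S100b were detected most often in P6 control. They passed the filter of 4 arrays only with those pools counted, so their directions in these comparisons are no support for a change.

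Of the vascular and blood cell markers, 5 of 7 were above 0 for Kir2.1 at P6 (none called), and their sums were 3.96 and 4.12 in P6 Kir2.1 pools 1 and 2 beside 0.933 to 1.46 in P6 control. Esam, the highest change at 4.86, and Cldn5 passed the filter of 4 arrays only with the P6 Kir2.1 pools counted. Their part in the count is no support for a change. Insig1 read highest among the P6 Kir2.1 pools in pools 1 and 2, and the part of the vascular and blood cell markers in its difference was not tested. Oligodendrocyte lineage markers were below 0 for Kir2.1 at P6 in 6 of 10 and olfactory sensory neuron markers in 3 of 5, none of them called. Both counts lay near the 56.3% of all features below 0. The mitral and tufted list had 8 of 10 changes above 0 (1 called), with sums from 11.2 to 21.1 in P6 control and 19.2 to 33.4 in P6 Kir2.1. The part of these markers in the results was not tested. In pools of cells, fewer cells of a type and less RNA per cell cannot be told apart. Within P6 control, pools 1 and 3 had the highest sums of astrocyte (13.3 and 14.2) and microglia markers (2.05 and 2.00). Interneuron sums were highest in pool 1 (8.80), but pool 3 (3.19) lay below pool 2 (4.64). Pool 1 had the lowest ensheathing cell (10.2) and oligodendrocyte (1.62) sums, and pool 3 the lowest vascular and blood cell sum (0.933). Without P6 control pools 1 and 3, a setting added after seeing the data, Insig2 differed by -1.91 (limma adjusted p = 0.0869). Acat2 with age then differed by -1.95 (limma adjusted p = 0.0823). Neither was called, and the members' median for Kir2.1 at P6 turned to 0.04.

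Promoter sequence was read for 24 of the 30 members, in 32 windows of 250 bases before a RefSeq transcription start in the assembly GRCm38.p6. Both strands were searched for TCACNCCAC, the core of the sterol regulatory element of the LDL receptor with 1 free base, and for CCAAT, which binds the factor NF-Y that works beside SREBP. The sterol element core was found in 1 member, Hmgcs1, 128 bases before its start, and in 1.32% of 9612 tested genes with a promoter entry (1.22% of all 27025 genes). CCAAT was found in 20 of 24 members and in 40.4% of the tested genes (37.5% of all genes). The windows of 3 genes are shown because Hmgcs1 holds the sterol element core and because Insig1 and Insig2 had opposite signs for Kir2.1 at P6; capitals mark the sterol element core and CCAAT or its complement ATTGG. They lie at chr13:119690101-119690350 on the plus strand (Hmgcs1), chr5:28071162-28071411 on the plus strand (Insig1) and chr1:121332590-121332839 on the minus strand (the farthest upstream of 3 Insig2 windows; the other 2 hold neither motif).
Hmgcs1: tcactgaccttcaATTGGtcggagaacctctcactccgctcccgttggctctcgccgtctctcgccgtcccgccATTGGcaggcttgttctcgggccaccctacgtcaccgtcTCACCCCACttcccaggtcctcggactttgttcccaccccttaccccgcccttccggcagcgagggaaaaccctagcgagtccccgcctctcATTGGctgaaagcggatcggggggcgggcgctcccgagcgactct
Insig1: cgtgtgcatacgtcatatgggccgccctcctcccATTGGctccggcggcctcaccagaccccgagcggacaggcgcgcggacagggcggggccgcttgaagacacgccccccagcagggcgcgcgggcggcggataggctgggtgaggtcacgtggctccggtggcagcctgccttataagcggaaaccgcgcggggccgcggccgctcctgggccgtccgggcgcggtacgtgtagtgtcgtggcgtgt
Insig2: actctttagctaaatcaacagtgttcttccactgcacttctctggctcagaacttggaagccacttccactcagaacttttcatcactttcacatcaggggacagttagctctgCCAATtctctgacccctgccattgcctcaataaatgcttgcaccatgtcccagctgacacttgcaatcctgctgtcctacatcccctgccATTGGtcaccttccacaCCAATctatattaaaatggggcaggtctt
The Hmgcs1 window holds 3 CCAAT motifs beside the sterol element core, the Insig1 window 1 and the Insig2 window 3. No 2 matches overlap in these windows. A match describes these letters and not a bound site.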

How the data were processed

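The data are 16 one-colour (Cy3) Agilent arrays read with Agilent Feature Extraction 10.7.3.1, per the file headers. The deposited processed signal is an intensity, linear and with background subtracted; the deposited value table holds the same signal divided by each array's 75th percentile over gene spots. Control and outlier spots were dropped and spots averaged per probe, leaving 55598 probes; RefSeq accessions named 26546 of 28079 probes that had one. Each array's log2 values were set relative to its 75th percentile among the 12102 probes well above background on all 16 arrays. Probes well above background on at least 4 arrays were kept, and the brightest stood for its gene. One limma 3.58.1 model (R 4.3.3, lmFit and eBayes, two-sided, 12 residual and 1.64 prior degrees of freedom) covered 4 group means, with Benjamini-Hochberg adjustment. The script was tested on simulated data. No 2 arrays shared values, and the highest correlation between 2 arrays was 0.881. Pool values are given for genes called, the 3 lowest p per Kir2.1 comparison and the interaction, and the brightest and dimmest gene of each role; Fdps, Dhcr7, Stard4, Fads3 and a few others were named after their values were seen. Pathway genes were named where called, or else the 2 with the lowest p. The members and lists were chosen with earlier results of these data known. Precision is limited by the number of arrays.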

Additional observations from a re-analysis of the deposited data

Results flagged for a closer look

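In 8 of 120 sets of 4 pools (30 genes in 4 groups), 1 pool lay far from the other 3 by Dixon's criterion at 95%, where chance gives about 6; 4 of these pools were low and 4 high. Acly in P3 control pool 1 stood at 1.69, with the next at 1.46, so the low spread of that group rests on the other 3. Fdps in P3 Kir2.1 pool 3 stood at 1.31, with the next at 0.54. Scd2 in P3 Kir2.1 pool 1 stood at 2.42, with the next at 1.79. Scap in P6 control pool 3 stood at -1.28, with the next at 0.57. Within P6 control, Srebf1 was well above background only in pool 3, at -3.09, with the next at -9.06. The other low pools were not well above background: Ggps1 in P6 control pool 3 at -9.39 (next -2.24), Lss in P3 control pool 4 at -7.70 (next -3.93) and Lss in P3 Kir2.1 pool 2 at -9.72 (next -4.38).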

How the results depend on the processing

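Of 35 named gene changes recomputed under the 13 other settings (12 for the mean over both ages and for the interaction) and with 1 pool left out, 0 reversed. They were picked for a call or a low p in these same data, or by hand. Their kept signs therefore say little about the other changes, and those of Ggps1 and Fasn were not among them. Without P6 control pools 1 and 3 the members' median turned to 0.04 for Kir2.1 at P6 and to 0.20 for the interaction. For Kir2.1 at P6, 0 members in place of 1 were called with scaling over all gene probes, quantile normalization, the deposited value table, no filter on dim probes, array weights, the replicate block, only the P6 arrays, and without P6 control pools 1 and 3 (a setting added after seeing the data); with 1 pool left out the count was 0 to 1. For age in control cells, 0 members in place of 1 were called with scaling over all gene probes, the deposited value table, no filter, the replicate block, only the control arrays, and without P6 control pools 1 and 3, and 2 (Acat2 and Hsd17b7) with the mean of a gene's probes; with 1 pool left out it was 0 to 1. For age in Kir2.1 cells 1 member (Idi1) in place of 0 was called with a floor. The counts of 0 at P3, for the mean and for the interaction held in every setting. Pools with the same number did not deviate together (24 pairs, correlations -0.0282 to 0.0308). No pairing by number was seen, though the spread between pools could hide one. The replicate block lowered the count over all features at P6 from 370 to 182. Only the P6 arrays gave 20 and normexp 719. Normexp was run on the median spot signal; the mean signal was not used here. The median change at P3 lay between -0.09 and 0.02 over other scalings and filters, and between -0.11 and 0.19 with 1 pool left out. Low signal limits Srebf1, Lss, Scd1, Ggps1 and Fasn, whose pools crossed background within groups.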
